A study of Mus musculus with 2 samples.

Results

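The genes described here mark the muscular and supporting cells of the vessel wall, and 10 of the 19465 genes counted in 2 mouse heart sections were chosen by symbol. Of these, 4 mark smooth muscle cells (Myh11, Tagln, Cnn1 and Smtn), 5 mark pericytes (Rgs5, Pdgfrb, Cspg4, Abcc9 and Vtn), and Notch3 marks both and was kept apart from either group. All 10 were found in the files and passed the minimum of 20 UMIs, counted over the pair of sections. The control section came from an α-MHC-MerCreMer+/− mouse and the transgenic section from an α-MHC-MerCreMer+/− hTOP2B LSL/− mouse, 1 section per genotype. Both genotypes carried the tamoxifen-activated Cre under the cardiomyocyte α-MHC promoter, and both received 1 intraperitoneal dose of 80 mg/kg tamoxifen. The methods give 6 weeks as the age of the mice in this single-dose model. Cre removes a floxed stop and lets the CAG promoter drive human TOP2B cDNA, so the transgene is turned on in cardiomyocytes and not by design in the vessel wall. The time from tamoxifen to harvest of these hearts is not given in the sources used here.

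Arteries and arterioles are wrapped in smooth muscle cells, which hold a contractile apparatus of smooth muscle myosin and actin-binding proteins under the control of serum response factor and myocardin. Capillaries are instead lined on the outside by pericytes, which are held in place by platelet-derived growth factor signals from endothelial cells. Both cell types are grouped as mural cells, and Notch3 is the Notch receptor of both. The heart muscle is densely supplied with capillaries, so pericytes lie close to nearly every cardiomyocyte, whereas smooth muscle is gathered around the larger vessels.

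Spatial expression was measured with the Visium CytAssist assay on FFPE sections cut at 5 μm, in which gene probes are captured on barcoded spots and counted by unique molecular identifiers (UMIs). Each spot covers a patch of tissue in which different cell types may lie side by side. The control section had 1256 spots and 14376300 UMIs, the transgenic section 924 spots and 12953389 UMIs, with medians of 11335.5 and 14531 UMIs per spot. Barcodes were shared by 725 spots, which is a property of the array and not of the tissue. The 8 cardiomyocyte genes summed here, without Myh7 and Nppa, made up 7.47% of control and 3.98% of transgenic UMIs, and red blood cell genes 0.214% and 2.04%. UMIs were summed per section and are given per 1000000 UMIs of that section (CPM). Mouse Top2b had a control level of 106 CPM and a transgenic level of 102 CPM. It does not check the label, since the transgene is human and the sources used here do not say whether the probes capture it. Ratios between the sections are log2 values of transgenic CPM divided by control CPM, each with the exact 95% interval that counting error alone allows. With 1 section per genotype no test was possible, and no difference below has a replicate check. The median log2 ratio was 0.20 over the 15236 genes that passed the same minimum. Levels of different genes were not compared, because each gene is counted through its own probes.

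The mural genes did not move together between the sections. Cnn1 was 6.68-fold higher in the transgenic section, Tagln was higher by 0.63 on the log2 scale, Rgs5 was level, and Smtn, Abcc9 and Vtn were lower. Past a 2-fold ratio, 1 member was higher, where 13.7% of all genes were, and 2 were lower, where 5.61% of all genes were. The counting interval lay above 0 for 5 members (39.4% of all genes) and below 0 for 4 (17% of all genes). A sum over spots does not tell fewer cells of a type from less RNA per cell.

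**Figure D1:**
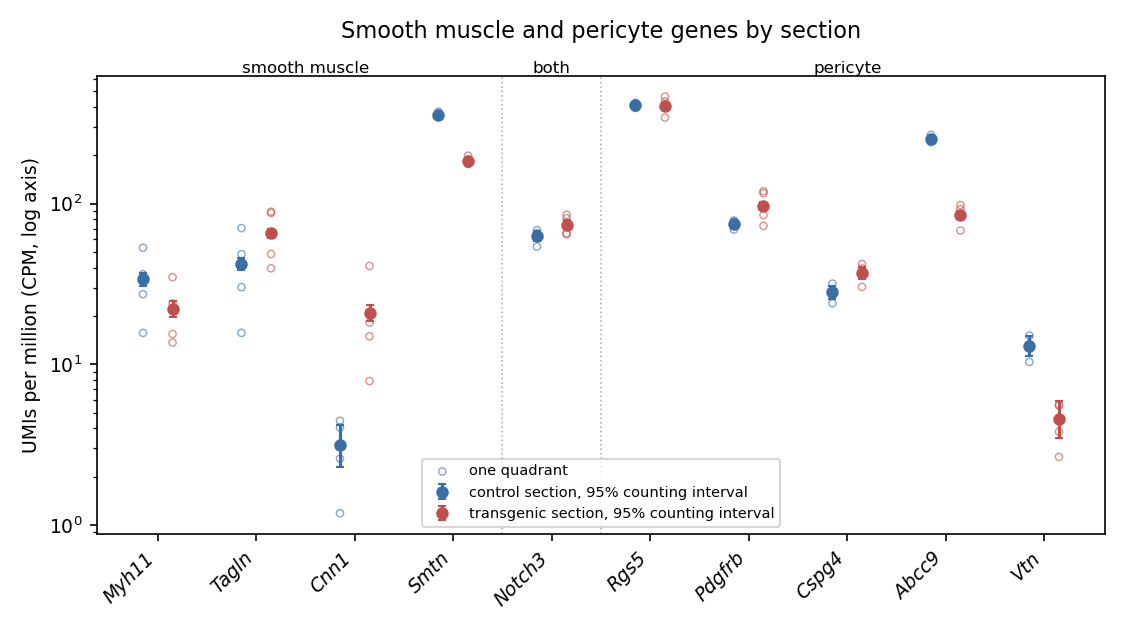
CPM on a log axis for each gene in the control (blue) and transgenic (red) section, filled points with 95% Poisson counting intervals and open circles for the 4 quadrants of each section. Cnn1 lies higher in every transgenic quadrant and Smtn, Abcc9 and Vtn lower, while the quadrants of the other 6 genes overlap.

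Among the smooth muscle genes, Myh11, the smooth muscle myosin heavy chain, was counted with 486 UMIs in the control section (33.8 CPM, 95% interval 30.9 to 36.9) and 287 in the transgenic section (22.2 CPM, 19.7 to 24.9). The log2 ratio was −0.61 (−0.83 to −0.40). Its quadrants overlapped, from 15.7 to 53.2 CPM in the control and from 13.7 to 34.9 CPM in the transgenic section. Tagln, the actin-binding protein transgelin, had 607 control UMIs (42.2 CPM, 38.9 to 45.7) and 845 transgenic UMIs (65.2 CPM, 60.9 to 69.8), a log2 ratio of 0.63 (0.48 to 0.78). Here too the quadrants overlapped, with 15.7 to 70.5 CPM against 39.6 to 89.2 CPM. So the spread inside a section was wider than the difference between the sections for both genes.

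Cnn1, which encodes the smooth muscle actin-binding protein calponin 1, was rare in the control heart and less so in the transgenic one. It had 45 UMIs in the control section (3.13 CPM, 2.28 to 4.19) and 271 in the transgenic section (20.9 CPM, 18.5 to 23.6). The log2 ratio was 2.74 (2.28 to 3.23), at percentile 98.5 of all genes. Control quadrants ran from 1.18 to 4.45 CPM and transgenic ones from 7.87 to 41.0 CPM, so the sections did not overlap, as for 30.3% of all genes in that direction.

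Smtn, whose product smoothelin is bound to the filaments of contractile cells, had 5143 UMIs in the control section (358 CPM, 348 to 368) and 2402 in the transgenic section (185 CPM, 178 to 193). The log2 ratio was −0.95 (−1.02 to −0.88). Quadrants of the control section lay between 347 and 374 CPM and those of the transgenic section between 177 and 199 CPM. The 4 quadrants of the transgenic section all lay below those of the control section for Smtn, Abcc9 and Vtn, which was true of 13.1% of all genes.

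Notch3 differed little, with 905 and 958 UMIs and 63.0 and 74.0 CPM. Its log2 ratio of 0.23 (0.10 to 0.37) was close to the median of all genes, and its quadrants overlapped (54.1 to 68.4 CPM and 64.5 to 85.3 CPM).

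Among the pericyte genes, Rgs5, a regulator of G protein signaling and a widely used pericyte marker, had 5881 UMIs in the control and 5288 in the transgenic section. Its level was 409 CPM (399 to 420) and 408 CPM (397 to 419), a log2 ratio of −0.00 (−0.06 to 0.05). Pdgfrb, the receptor through which pericytes are recruited, was counted 1075 and 1261 times, at 74.8 CPM (70.4 to 79.4) and 97.3 CPM (92.0 to 103). Cspg4, the NG2 proteoglycan of the mural cell surface, was counted 403 and 481 times, at 28.0 CPM (25.4 to 30.9) and 37.1 CPM (33.9 to 40.6). The log2 ratios of Pdgfrb and Cspg4 were 0.38 and 0.41, and the quadrants overlapped for all 3 genes.

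Abcc9 and Vtn had the lowest ratios of the group. Abcc9 encodes the sulfonylurea receptor SUR2, the regulatory subunit of ATP-sensitive potassium channels in pericytes, smooth muscle and cardiomyocytes. It had 3655 control UMIs (254 CPM, 246 to 263) and 1105 transgenic UMIs (85.3 CPM, 80.3 to 90.5), which is 2.98-fold lower. Control quadrants held 242 to 268 CPM and transgenic quadrants 68.1 to 98.1 CPM. Vtn, which encodes the matrix and plasma protein vitronectin, was counted 187 times in the control section (13.0 CPM, 11.2 to 15.0) and 59 times in the transgenic section (4.55 CPM, 3.47 to 5.88). The ratio was 2.86-fold lower, with quadrants of 10.4 to 15.1 CPM and 2.66 to 5.62 CPM. The log2 ratios of −1.58 for Abcc9 and −1.51 for Vtn stood at percentiles 1.55 and 1.80 of all genes.

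The promoters of the 4 genes whose quadrants did not overlap are shown, Cnn1 apart upward (30.3% of all genes) and the other 3 downward (13.1%). They come from RefSeq (GRCm38.p6) and run from 250 bases before to 50 bases after the transcription start, 5′ to 3′ on the strand of the gene. Cnn1 lies at chr9:22099003-22099302 on the plus strand, Smtn at chr11:3539243-3539542 on the minus strand, Abcc9 at chr6:142702225-142702524 on the minus strand and Vtn at chr11:78498870-78499169 on the plus strand. Capitals mark matches to GGAATG (M-CAT) or TATAAA on either strand.
Cnn1: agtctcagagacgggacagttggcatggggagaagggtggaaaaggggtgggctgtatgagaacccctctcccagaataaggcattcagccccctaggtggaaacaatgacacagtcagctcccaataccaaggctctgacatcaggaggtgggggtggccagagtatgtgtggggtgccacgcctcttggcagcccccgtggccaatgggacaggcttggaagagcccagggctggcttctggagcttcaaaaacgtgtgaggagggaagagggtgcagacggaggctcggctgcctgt
Smtn: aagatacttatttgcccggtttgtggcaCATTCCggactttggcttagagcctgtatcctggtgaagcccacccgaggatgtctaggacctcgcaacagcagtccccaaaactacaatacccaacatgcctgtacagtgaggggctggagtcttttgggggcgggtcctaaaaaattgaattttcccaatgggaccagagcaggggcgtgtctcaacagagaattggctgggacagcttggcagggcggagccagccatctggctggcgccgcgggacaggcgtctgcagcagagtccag
Abcc9: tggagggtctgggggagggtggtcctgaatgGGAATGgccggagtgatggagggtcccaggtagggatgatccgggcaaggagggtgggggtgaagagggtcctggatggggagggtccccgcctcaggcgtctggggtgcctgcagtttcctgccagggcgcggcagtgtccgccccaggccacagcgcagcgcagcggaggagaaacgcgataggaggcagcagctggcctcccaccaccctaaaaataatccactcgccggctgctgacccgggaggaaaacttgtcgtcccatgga
Vtn: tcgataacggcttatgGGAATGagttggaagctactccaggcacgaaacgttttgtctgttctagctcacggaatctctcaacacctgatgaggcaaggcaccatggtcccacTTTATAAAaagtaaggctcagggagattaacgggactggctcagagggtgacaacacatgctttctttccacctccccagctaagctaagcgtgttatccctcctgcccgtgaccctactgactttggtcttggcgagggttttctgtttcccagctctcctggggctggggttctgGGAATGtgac

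Promoters of 7 members were in the RefSeq table used here, and those of Myh11, Tagln and Pdgfrb were not. The letters of 4 motifs were searched on both strands, namely the CArG box of serum response factor, the M-CAT element GGAATG, the AP-1 element TGACTCA and TATAAA. The M-CAT letters were found in 3 of the 7, namely Smtn, Abcc9 and Vtn, where 14.7% of the 32851 mouse promoters in the table hold them. In Vtn they occurred at positions 17 and 291 of the window, in Abcc9 at position 32 and in Smtn, on the opposite strand, at position 29. TATAAA was found in Vtn alone, on both strands with overlapping letters (13.6% of all promoters). The CArG box (1.63% of all promoters) and the AP-1 letters (5.2%) were found in none of the 7 windows. A match is a run of letters in a window and not a measured binding site.

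Taken as lists, the smooth muscle and pericyte members had medians near 0, and each median hid members that went both ways. The smooth muscle median was 0.01, over 2 genes above 0 (Tagln and Cnn1) and 2 below (Myh11 and Smtn). The pericyte median was −0.00, over 2 above 0 (Pdgfrb and Cspg4), Rgs5 at 0 and 2 well below (Abcc9 and Vtn). Both medians were about 0.2 below the median of all genes, at −0.19 and −0.21 relative to it. The smooth muscle median rested on single members, moving to −0.61 without Tagln and to 0.63 without Smtn.

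Within a section the smooth muscle share of the UMIs of both lists does not depend on the section's depth. It was 35.9% in the control section (Clopper–Pearson interval 35.2 to 36.6, quadrants 35.0 to 37.7) and 31.7% in the transgenic section (30.9 to 32.6, quadrants 27.1 to 37.3). Smtn alone held 81.9% of the smooth muscle UMIs in the control and 63.1% in the transgenic section. Without Smtn the share ran the other way, from 9.22% (8.72 to 9.75) in the control to 14.6% (13.9 to 15.3) in the transgenic section. Without Smtn and Abcc9 it was 13.1% and 16.5%. The direction of the share was therefore that of Smtn and not that of the list.

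The share of spots with at least 1 UMI rises with the UMIs of a gene, so it was compared between the sections and not between genes. In the control section Rgs5 was found in 97.3% of spots, Smtn in 96.3%, Abcc9 in 92.2%, Myh11 in 19.4%, Tagln in 22.2% and Cnn1 in 3.26%. In the transgenic section Rgs5 was found in 94.0% of spots and Smtn in 87.7%, Abcc9 in 64.5%, Myh11 in 19.6%, Tagln in 44.9% and Cnn1 in 19.7%. Transgenic spots were deeper, so the shares were also taken after each spot was thinned to 8134 UMIs. Spots with fewer were dropped, 140 of them control and 78 transgenic. Thinned, Tagln was found in 18.4% of control spots (16.1 to 20.8) and 31.8% of transgenic spots (28.7 to 35.1), and Cnn1 in 2.24% (1.45 to 3.29) and 12.9% (10.7 to 15.3). Myh11 was found in 16.2% (14.1 to 18.5) and 13.5% (11.2 to 16.0), where the intervals overlap. Abcc9 was found in 86.8% of thinned control and 48.9% of thinned transgenic spots, Smtn in 93.6% and 76.0%, and Vtn in 10.6% and 2.84%. Rgs5 was at 95.3% and 94.8% at this depth.

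The layout over the tissue separated Myh11 and Tagln from the rest in the control section. Moran's I, deposited for each gene and section, is high where neighboring spots hold like counts and near 0 where they do not. In the control section Tagln had 0.306 and Myh11 0.223, and no other member passed 0.1, a level that 0.484% of all genes and 0.912% of genes with at least 200 UMIs reached. Each of the other 8 had 0.057 or less, down to −0.006 for Vtn. In the transgenic section 7 of the 10 passed 0.1, where 7.64% of all genes and 15.5% of genes with at least 200 UMIs did. Rgs5 went from 0.057 in the control to 0.340 in the transgenic section, Cnn1 from 0.037 to 0.285, Smtn from 0.029 to 0.160, Pdgfrb from 0.045 to 0.133 and Abcc9 from 0.043 to 0.120. Their ranks among all genes did not rise in this way. Rgs5 stood at percentile 98.7 in the control and 98.3 in the transgenic section, and Cnn1 at 97.4 and 97.7. Smtn stood at 96.2 and 95.2, Pdgfrb at 98.1 and 94.2 and Abcc9 at 98.0 and 93.6. Notch3 stood at 0.031 and 0.065 and Cspg4 at 0.011 and 0.031. Myh11 and Tagln alone among the members were lower in the transgenic section, at 0.137 and 0.216. A higher value in the transgenic section was the rule for the whole table, at 68.7% of all genes and 87.2% of genes with at least 200 UMIs, so the 8 members that were higher are close to that background.

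**Figure D2:**
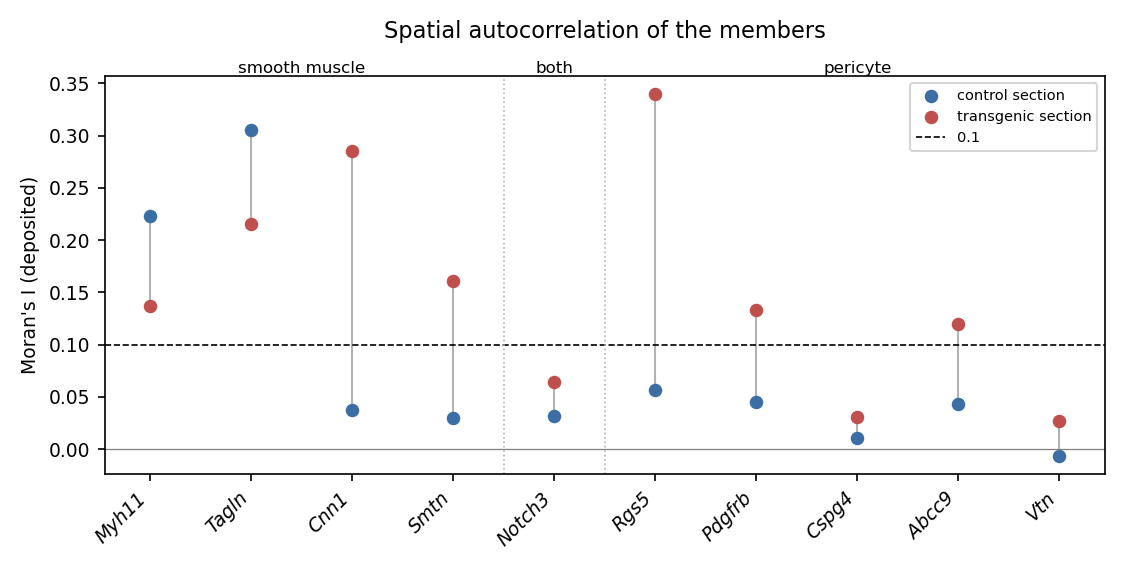
Deposited Moran's I of each gene in the control (blue) and transgenic (red) section, joined by a line, with the level of 0.1 dashed. Myh11 and Tagln are lower in the transgenic section, and the other 8 genes are higher, most of all Rgs5 (0.057 to 0.340) and Cnn1 (0.037 to 0.285). Among all genes Rgs5 stood at percentile 98.7 in the control and 98.3 in the transgenic section.

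Counts of Myh11 and Tagln were gathered into few spots. The 5% of spots with the most UMIs of the gene held 58.0% of Myh11 and 57.8% of Tagln UMIs in the control section. Such spots held 12.7% for Smtn, 12.9% for Rgs5 and 14.1% for Abcc9, which are counted more often. They held 31.5% for Cspg4, whose 403 control UMIs are nearer to those of Myh11. In the transgenic section these spots held 52.6% of Myh11 and 37.8% of Tagln UMIs. The share rises as a gene gets rarer, and for the sparse Cnn1 and Vtn it was 100% and 42.2% in the control and 47.2% and 84.7% in the transgenic section. The highest single spot had 22 Tagln UMIs in the control and 27 in the transgenic section, and 16 and 9 for Myh11. Edge spots were those with fewer than 6 neighbors over tissue, so spots beside a gap in the tissue count as well. They were 230 of 1256 control and 311 of 924 transgenic spots, so the edge is a larger part of the transgenic section. At the tissue edge Myh11 was lower than inside, by a log2 ratio of −1.12 (−1.66 to −0.61) in the control and −0.63 (−1.07 to −0.21) in the transgenic section. Tagln was lower at the edge in the control section, at −1.10 (−1.58 to −0.65), but not in the transgenic one, at 0.05 (−0.17 to 0.27). Cnn1 was at −0.74 (−2.68 to 0.72) in the control and −0.82 (−1.30 to −0.37) in the transgenic section. Pdgfrb was higher at the edge in both, by 0.45 (0.22 to 0.68) and 0.25 (0.07 to 0.42).

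**Figure D3:**
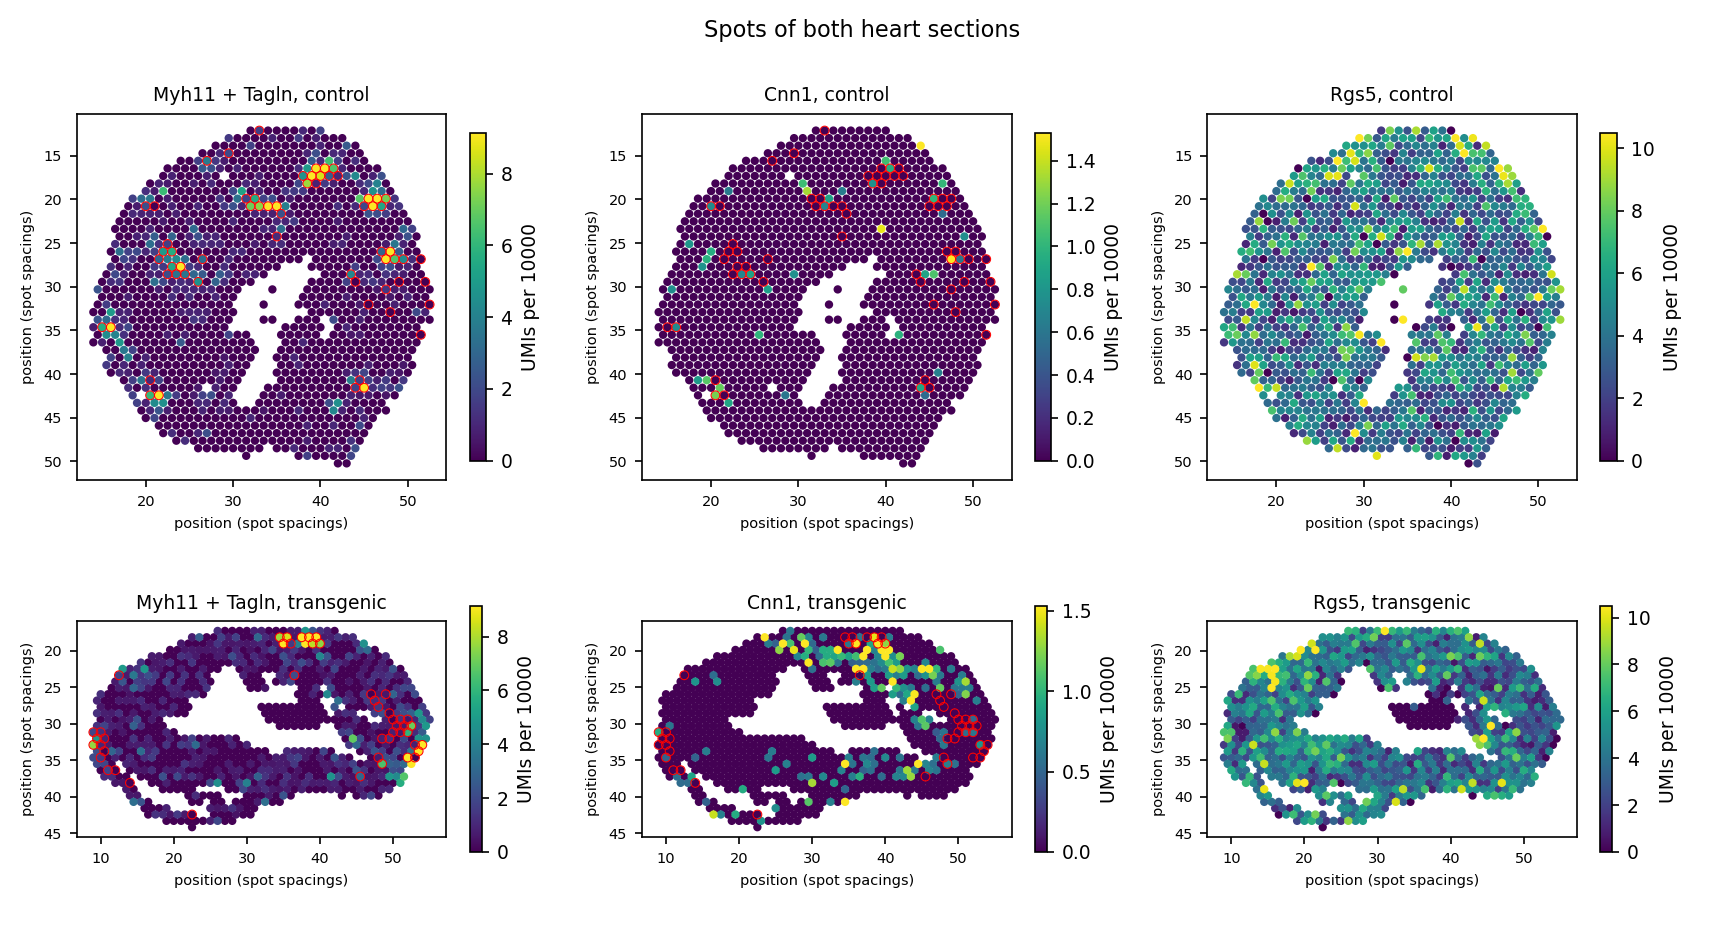
UMIs per 10000 in each spot of 1000 or more UMIs for Myh11 and Tagln summed, Cnn1 and Rgs5 (columns) in the control (upper row) and transgenic (lower row) section, with positions in spot spacings and color scales capped at percentile 99 over both sections. Red rings, left out of the Rgs5 column, mark the 63 control and 47 transgenic vessel-rich spots. Myh11 and Tagln gather in ringed patches. Cnn1 lies mostly outside them in the transgenic section, with 7.01% of its UMIs in ringed spots. Rgs5 is found in 97.3% of control and 94.0% of transgenic spots.

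To place the members against the larger vessels without using them, spots were ranked by the summed share of 4 other smooth muscle genes, Acta2, Myl9, Mylk and Lmod1. The top 5% were called vessel-rich, a name for spots rich in these 4 genes, which gave 63 control and 47 transgenic spots. Of the UMIs of the ranking genes, Acta2 held 4204 of 5516 in the control and 5341 of 7328 in the transgenic section. Depth differed little between the kinds of spot, with medians of 12206 and 11318.5 UMIs in the control and 15763 and 14460 in the transgenic section. In the control section Tagln was 15.5-fold (13.2 to 18.2) higher in vessel-rich than in other spots, Myh11 13.2-fold (11.0 to 15.9) and Cnn1 9.92-fold (5.03 to 18.9). Cspg4 was 2.04-fold (1.44 to 2.82) and Notch3 1.91-fold (1.51 to 2.39) higher. Smtn was not set apart by these spots, at 1.08-fold (0.955 to 1.21), and neither was Pdgfrb at 1.01-fold (0.757 to 1.31) nor Rgs5 at 0.912-fold (0.807 to 1.03). Abcc9 was lower there, at 0.839-fold (0.713 to 0.982). So of the smooth muscle members 3 followed the other smooth muscle genes across the control section and Smtn did not.

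In the transgenic section Myh11 was 6.30-fold (4.79 to 8.20) and Tagln 4.83-fold (4.08 to 5.69) higher in vessel-rich spots. Cnn1 was at 1.27-fold (0.753 to 2.03), an interval that holds 1. Notch3 at 1.64-fold (1.30 to 2.05), Cspg4 at 1.53-fold (1.08 to 2.12), Pdgfrb at 1.30-fold (1.03 to 1.61) and Smtn at 1.26-fold (1.07 to 1.48) were higher, and Rgs5 at 0.841-fold (0.738 to 0.954) lower. The intervals for Myh11, Tagln and Cnn1 lay below those of the control section. The ranking genes themselves also differed less between the kinds of spot in the transgenic section. They stood at 1799 CPM in vessel-rich and 492 CPM in other transgenic spots, against 1741 and 308 CPM in the control section. In transgenic vessel-rich spots resting fibroblast genes were 1.79-fold, activated fibroblast genes 1.45-fold and red blood cell genes 0.380-fold of their level elsewhere. In the control section they were 1.27-fold, 1.53-fold and 0.684-fold. The part of these genes and of the ranking in the smaller ratios of the members was not tested. Without Acta2 among the ranking genes, the intervals of Abcc9 in the control (0.894-fold, 0.762 to 1.04) and Rgs5 in the transgenic section (0.898-fold, 0.784 to 1.02) hold 1. Red blood cell genes were then 0.705-fold in the control and 0.876-fold in the transgenic section, and activated fibroblast genes 1.44-fold and 1.76-fold. For both lists the order of the sections therefore rested on Acta2. Atrial genes in control vessel-rich spots went from 0.856-fold to 4.10-fold, and 18 instead of 10 of the 47 transgenic spots lay at the edge. Vtn had 9 UMIs in control and 2 in transgenic vessel-rich spots, too few to place it.

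**Figure D4:**
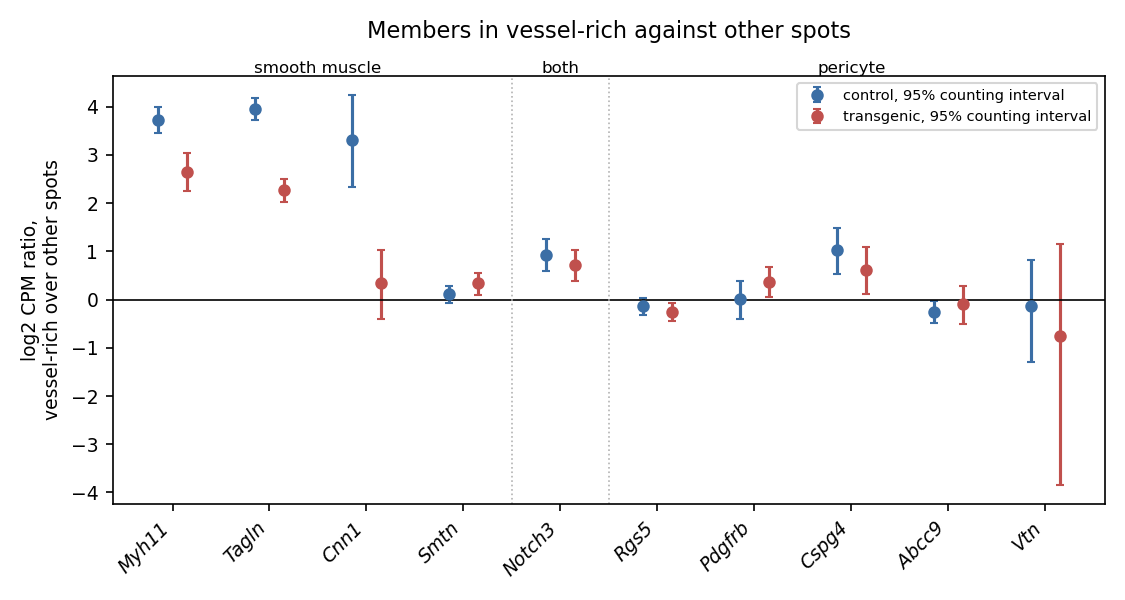
Log2 ratio of CPM in vessel-rich over other spots for each gene in the control (blue) and transgenic (red) section, with 95% counting intervals. Myh11, Tagln and Cnn1 stand far above 0 in the control section, Cnn1 comes down to 0.35 in the transgenic section, and Cspg4 and Notch3 lie above 0 in both.

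Divided by kind of spot under the reported ranking, the difference in Tagln between the sections had opposite signs. In vessel-rich spots it had 281 control and 188 transgenic UMIs, a log2 ratio of −0.52 (−0.79 to −0.24). In the other spots it had 326 and 657 UMIs, a ratio of 1.17 (0.97 to 1.36). Cnn1 had 16 and 19 UMIs in vessel-rich spots, a ratio of 0.31 (−0.73 to 1.37) that does not set the sections apart at this depth. In the other spots it had 29 and 252 UMIs, a ratio of 3.27 (2.72 to 3.88). Myh11 was lower in vessel-rich spots, with 206 and 78 UMIs and a ratio of −1.34 (−1.73 to −0.95), and nearer to level elsewhere, with 280 and 209 UMIs and −0.27 (−0.53 to −0.00). Abcc9 was lower in both kinds, by ratios of −1.43 and −1.58, as was Smtn at −0.74 and −0.96. How many large vessels each section happened to cut was not tested, and vessel-rich spots are the same share of either section by construction.

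Across spots the members were compared by Pearson's r of log-transformed UMIs per 10000, over the 1249 control and 921 transgenic spots with at least 1000 UMIs. Spots of 1 section share a library, their depth enters each value, and neighbors share tissue, so r is a description. Myh11 and Tagln had the highest r of the 6 smooth muscle pairs, 0.59 in the control and 0.34 in the transgenic section. Cnn1 had r of 0.24 with Myh11 and 0.23 with Tagln in the control section, and 0.05 and 0.12 in the transgenic section. Pericyte pairs were nearly unrelated in the control section, with a median r of 0.03 over 10 pairs and a highest value of 0.08 for Cspg4 and Abcc9. The 20 pairs of a smooth muscle with a pericyte gene had a median of 0.01 in the control and 0.06 in the transgenic section. At this count per spot a low r does not separate genes of different cells from genes that are sparsely counted.

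The genes closest to Myh11 in the control section were Tagln (0.59), Tpm2 (0.50), Myl9 (0.46), Acta2 (0.37) and Eln (0.30), out of 7221 genes that passed 200 UMIs in this section. In the transgenic section they were Tagln (0.34), Atp2a3 (0.26), Csrp1 (0.25), Acta2 (0.24) and Tpm2 (0.24), out of 7590 genes. Rgs5 had no close single-gene partner in the control section, where the highest values were 0.12 for Acta1 and Mybpc3 and 0.10 for Aldoa, Col14a1 and Epas1. In the transgenic section they were Aldoa (0.51), Tnnt2, Lpl, Atp2a2 and Atp5a1 (0.49 each), genes of heart muscle contraction and energy supply. With the sum of the 15 other pericyte genes described below, Rgs5 had r of 0.14 in the control and 0.41 in the transgenic section. With summed cardiomyocyte genes it had 0.02 and 0.49.

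Over all transgenic spots Rgs5 was related to several cell types and to depth, and these values were nearer 0 in spots poorer in red blood cell genes. Its r with summed cardiomyocyte genes was 0.49, with endothelial genes 0.46, with red blood cell genes −0.43 and with log spot depth 0.42. The same values in the control section were 0.02, 0.02, −0.06 and 0.03. Over the 460 transgenic spots at or below the median share of red blood cell genes, they were 0.13, 0.13, 0.04 and 0.08. Moran's I, recomputed here over all spots as 0.386, came to 0.184 in those spots, and in the control section it was 0.079 over all and 0.059 over such spots. For Smtn the r with cardiomyocyte genes went from 0.36 over all transgenic spots to 0.03 in these spots, and the recomputed Moran's I from 0.199 to 0.041. Recomputed Moran's I also went from 0.184 to 0.046 for Myh11 and from 0.139 to 0.074 for Pdgfrb. In the control section Myh11 went from 0.333 to 0.280. Spots were chosen by red blood cell genes, so a smaller r with those genes was partly fixed in advance. The chosen transgenic spots still held 3753 CPM of them, against 672 CPM in the chosen control spots and 2145 CPM in the whole control section. The part of blood-rich spots in the layout of Rgs5, Smtn, Myh11 and Pdgfrb was not tested beyond these values.

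**Figure D5:**
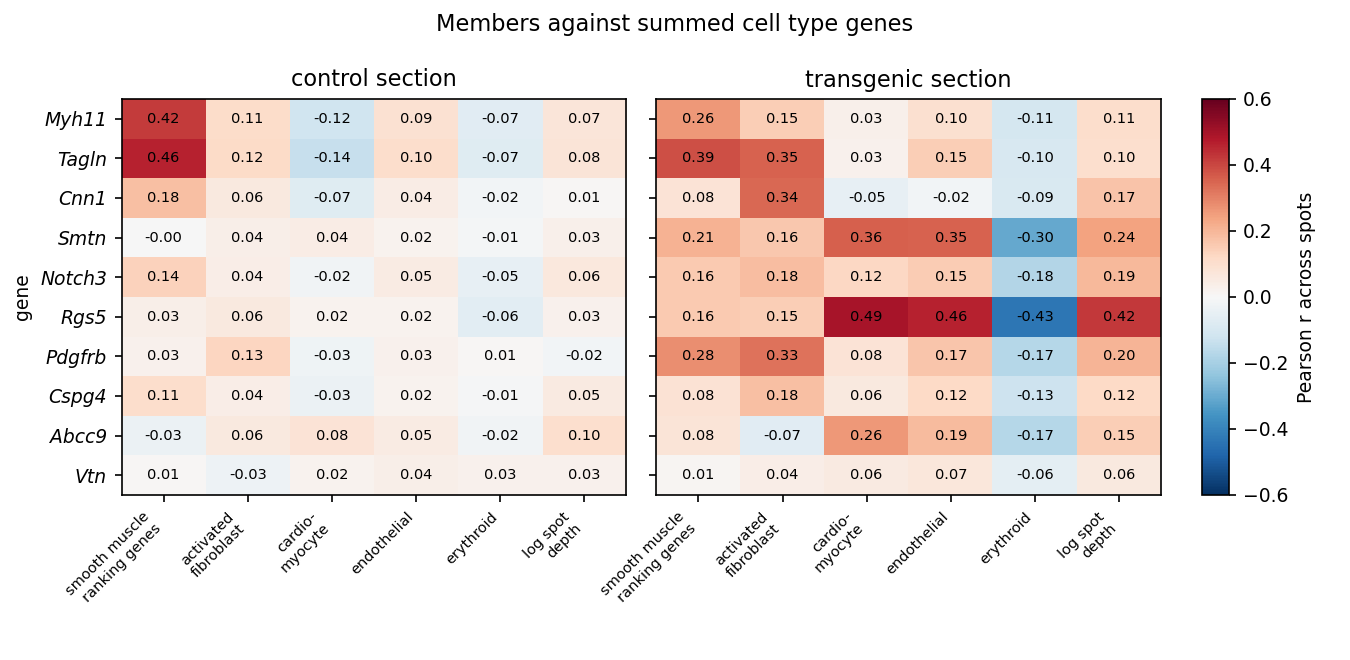
Pearson's r across spots between each gene and summed genes of 5 cell types or the log of spot depth, for 1249 control and 921 transgenic spots, with the value in each cell. Myh11 and Tagln go with the smooth muscle ranking genes in both sections, Tagln, Cnn1 and Pdgfrb go with activated fibroblast genes in the transgenic section (0.33 to 0.35), and Rgs5 goes with cardiomyocyte genes there (0.49).

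Over all spots most members had a higher r with activated fibroblast genes in the transgenic section than in the control. Cnn1, Tagln and Pdgfrb had the highest. The 7 such genes (Postn, Cthrc1, Comp, Col1a1, Col3a1, Fn1 and Ltbp2), which mark matrix-producing cells, were all at least 2-fold higher there and went from 0.0681% to 0.401% of UMIs. The r of their sum was 0.34 with Cnn1, 0.35 with Tagln and 0.33 with Pdgfrb in the transgenic section, and 0.06, 0.12 and 0.13 in the control section. From control to transgenic it also went from 0.04 to 0.18 for Notch3 and for Cspg4, and from 0.04 to 0.16 for Smtn. It went from 0.06 to 0.15 for Rgs5, 0.11 to 0.15 for Myh11, −0.03 to 0.04 for Vtn and 0.06 to −0.07 for Abcc9. The r with other lists rose for several members as well. For Tagln it went from 0.03 to 0.20 with macrophage and from −0.01 to 0.22 with epicardial genes. For Smtn it went from 0.02 to 0.35 with endothelial genes, but for Cnn1 from 0.04 to −0.02. The activated fibroblast sum went from 9792 to 51982 UMIs and Cnn1 from 45 to 271, and the part of these counts in r was not tested. With resting fibroblast genes the transgenic r was 0.36 for Rgs5, 0.33 for Smtn and for Pdgfrb, 0.22 for Tagln and 0.09 for Cnn1. In the 5% of transgenic spots richest in activated fibroblast genes, Tagln was 4.03-fold (3.36 to 4.81) and Cnn1 3.34-fold (2.35 to 4.66) higher than in other spots. Myh11 was 2.45-fold (1.66 to 3.51) and Cspg4 1.97-fold (1.43 to 2.67) higher. Pdgfrb was 1.35-fold (1.07 to 1.68) higher and Abcc9 lower, at 0.703-fold (0.501 to 0.960). Of these 47 spots 4 were also vessel-rich. In the 63 control spots ranked the same way, of which 8 were vessel-rich, Myh11 was 2.96-fold (2.18 to 3.95), Tagln 2.91-fold (2.21 to 3.78) and Cnn1 2.41-fold (0.627 to 6.65) higher. The intervals of Myh11, Tagln and Cnn1 overlapped between the sections. The 5 genes closest to Cnn1 in the transgenic section, looked up after its values were seen, were Sprr1a (0.45), Postn (0.42), Thbs4 (0.42), Gap43 (0.42) and Cthrc1 (0.39). For Cnn1 the recomputed Moran's I was 0.356 over all transgenic spots and 0.367 over those poorer in red blood cell genes, and the r with activated fibroblast genes 0.34 and 0.35. Over the same spots that r went from 0.35 to 0.31 for Tagln and from 0.33 to 0.22 for Pdgfrb. For the other members it was 0.14 for Cspg4, 0.07 for Myh11, 0.06 for Notch3, −0.04 for Smtn, −0.01 for Vtn and −0.19 for Rgs5 and Abcc9. Control spots chosen the same way gave 0.00 for Cspg4, 0.08 for Myh11, 0.07 for Notch3, −0.04 for Smtn and −0.02 for Vtn. They gave 0.10 for Rgs5 and 0.03 for Abcc9. So most of these members did not keep the higher transgenic r in such spots. In the 5% of transgenic spots richest in Sprr1a, Cnn1 was at 4.31-fold (3.15 to 5.81) and Tagln at 1.17-fold (0.879 to 1.54). Sprr1a was chosen as the gene closest to Cnn1, so a high Cnn1 value there was fixed in advance. Cnn1 and Tagln had r of 0.12 over all transgenic spots and 0.02 over those poorer in red blood cell genes. Which cells held the Cnn1 and Tagln RNA was not tested, as spots mix cell types.

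Smtn, Abcc9 and Vtn were lower in the transgenic section, as were 6 of the 8 cardiomyocyte genes summed here, and Rgs5 was level. The sum of these 8 (Myh6, Tnnt2, Tnni3, Mybpc3, Ttn, Ryr2, Myl2 and Ckm) went from 74683 to 39801 CPM, a log2 ratio of −0.91. They ran from Tnni3 at −1.92 to Tnnt2 at 0.17, with 6 of 8 below 0, where 63.2% of all genes were above 0. Myh7 and Nppa are not in the sum and went from 483 to 101646 and from 3935 to 262300 UMIs. The sum is therefore not a measure of all cardiomyocyte RNA. Over transgenic spots the r with summed cardiomyocyte genes was 0.26 for Abcc9, 0.36 for Smtn, 0.06 for Vtn and 0.49 for the level Rgs5. Over control spots it was 0.08, 0.04, 0.02 and 0.02 in the same order. Over transgenic spots poorer in red blood cell genes it was 0.15, 0.03, 0.03 and 0.13. The part of cardiomyocyte RNA in these genes was not tested. The other subunits of ATP-sensitive potassium channels were lower by less than Abcc9, with Kcnj11, the pore of cardiomyocytes, at −0.67 (−0.76 to −0.59) and Kcnj8, the pore of pericytes and smooth muscle, at −0.24 (−0.38 to −0.11). Abcc8, the other sulfonylurea receptor, was at 0.33 (0.12 to 0.55).

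Other genes of the same cells were mixed as well. The 16 other smooth muscle genes had a median log2 ratio of 0.16, close to that of all genes, with 13 above 0, where 63.2% of all genes were, 4 at least 2-fold higher (13.7% of all genes) and 0 at least 2-fold lower (5.61% of all genes). Their intervals lay above 0 for 7 and below 0 for 1. They ran from Myocd, the coactivator myocardin, at −0.51 (−0.64 to −0.37) to Gja4, an arterial gap junction gene, at 1.41 (1.21 to 1.62). Acta2, the smooth muscle actin, was at 0.50 (0.44 to 0.55). The 15 other pericyte genes had a median of 0.07, with 8 above 0, 3 at least 2-fold higher and 0 at least 2-fold lower. Their intervals lay above 0 for 7 and below 0 for 6, where 39.4% and 17% of all genes did. They ran from P2ry14, a nucleotide receptor, at −0.79 (−1.32 to −0.28) to Gucy1b1, a subunit of the nitric oxide receptor, at 2.30 (2.10 to 2.50). The 10 endothelial genes had a median of 0.19, from Kdr at −0.92 to Cldn5 at 1.26. Fibroblast lists had higher medians, 0.74 for resting genes (Gsn at 0.00 to Tcf21 at 2.01) and 4.81 for activated genes (Col3a1 at 2.01 to Ltbp2 at 6.92). Further medians were 0.85 for macrophages (Lyz2 at −0.20 to Csf1r at 1.11), 0.60 for epicardium (Upk3b at −0.37 to Krt19 at 2.04), 1.20 for atrium (Sln at −0.53 to Myl7 at 1.86) and 3.24 for red blood cells (Alas2 at 3.08 to Hbb-bt at 3.53).

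Ligands and receptors of the platelet-derived growth factor pathway went in different directions. Pdgfb, the endothelial ligand that recruits pericytes, was at −0.15 (−0.26 to −0.03) and Pdgfa at −0.10 (−0.26 to 0.06). Pdgfd was at 0.61 (0.40 to 0.82), and Pdgfc, with 6 control and 30 transgenic UMIs, at 2.47 (1.18 to 4.03). Pdgfra, the receptor of fibroblasts, was at 1.16 (0.94 to 1.39), beside 0.38 for Pdgfrb.

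Of the 12 Notch pathway genes counted, 7 were above 0, where 63.2% of all genes were, and 1 was at least 2-fold higher, where 13.7% were. That gene was Heyl, a target of Notch3 in mural cells, at 1.00 (0.89 to 1.12). The receptors stood at 0.94 (0.71 to 1.17) for Notch2, 0.59 (0.45 to 0.72) for Notch4 and 0.02 (−0.13 to 0.18) for Notch1, beside 0.23 for Notch3. Among the ligands Dll4 was at −0.40 (−0.64 to −0.16), Jag2 at −0.18, Dll1 at −0.06 and Jag1 at 0.18, the last 3 with intervals that hold 0. The targets Hes1 and Hey1 stood at −0.30 (−0.42 to −0.19) and 0.39 (0.18 to 0.60), Nrarp at −0.27 and Hey2 at 0.45, the last 2 with intervals that hold 0.

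The regulators of the smooth muscle contractile program were also mixed. Srf, the factor that binds the CArG box, was at 0.39 (0.29 to 0.50), its coactivator Mrtfa at 0.64 (0.39 to 0.89) and Mrtfb at 0.13 (−0.03 to 0.28). Klf4, which opposes the contractile program, was at 0.68 (0.49 to 0.88), while Myocd was at the −0.51 given above. Of these 5 genes, 3 had intervals above 0 and 1 below, where 39.4% and 17% of all genes did.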

How the data were processed

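Reads were processed by the authors in Space Ranger 2.0.0, the version in the header of the counts, and the submitters' processing notes name GRCm39 and mm39 with no role. The probe set is not given in the sources used here. The deposited values are raw UMI counts per gene and spot over tissue, not normalized, and a Moran's I score per gene that the authors deposited for each section. The p-values deposited beside Moran's I, the image scale factors and the study's Wilcoxon comparison over spots were not used.

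UMIs were summed per section, and CPM and log2 ratios were computed with exact Poisson, Clopper–Pearson and conditional binomial 95% intervals (Python 3.11.15, numpy 2.4.6, scipy 1.17.1, pandas 2.3.3). The intervals cover counting error only. Quadrants were cut at the center of each section. Calls used genes with at least 20 UMIs over both sections, and correlations spots with at least 1000 UMIs. The members, gene lists and measures were chosen with earlier results of these data known. Named genes are the 10 members, the highest and lowest gene of each other list, the genes of the PDGF, Notch, SRF and potassium channel lists, and the 5 genes closest to Myh11 and to Rgs5. Lists of other cell types without a value in the text are not reported here. Acta2, the partners of Cnn1, the Sprr1a ranking and the red blood cell and fibroblast comparisons fall outside that rule and were added after values were seen. The interval code was tested on simulated data. Alternatives were edgeR 4.0.16 TMM and DESeq2 1.42.0 size factors (R 4.3.3), other totals, spots, weights and list members, and 1 CPM added. Leaving out the 10% vessel-rich spots, Smtn or both Smtn and Abcc9, and keeping the spots poorer in red blood cell genes, were chosen after seeing the data.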

Additional observations from a re-analysis of the deposited data

How the results depend on the processing

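No paired analysis was possible because each genotype had 1 section. Every member other than Rgs5 kept its direction under every alternative run for it. Rgs5, whose interval held 0 as reported, ran from −0.16 (TMM) to 0.03. Notch3 ran from 0.08 (TMM) to 0.28. The counts of intervals above and below 0 were taken with CPM alone. Cnn1 ran from 2.41 (1 CPM added) to 3.55 (without the 10% vessel-rich spots), Tagln from 0.47 (TMM) to 1.24 and Myh11 from −0.77 (TMM) to −0.22, the last 2 also without the 10% vessel-rich spots. DESeq2 size factors came to 1 for both sections, so that setting compared UMIs without scaling for depth. TMM lowered all log2 ratios by 0.157 and DESeq2 size factors by 0.15, and the pericyte median became −0.16 and −0.15. It was −0.090 without the 50 most abundant genes, 0.11 with Notch3 as a pericyte gene, and 0.19 without Abcc9, also without Smtn and Abcc9. The smooth muscle median was 0.45 without the vessel-rich spots, 0.51 without the 10% vessel-rich spots, 0.23 with Notch3 counted in, −0.61 without Tagln, and 0.63 without Smtn, also without Smtn and Abcc9. The smooth muscle minus the pericyte median, 0.01 as reported, was in the same order 0.45, 0.50, 0.24, −0.61, 0.63 and 0.44, and −0.18 without Abcc9. The smooth muscle share was 34.0% in the control and 30.2% in the transgenic section without vessel-rich spots, 33.7% and 29.6% without the 10%, 39.1% and 36.8% with Notch3 as smooth muscle, 34.2% and 29.4% with Notch3 as pericyte, 33.6% and 26.5% without Tagln, 45.4% and 34.9% without Abcc9, 9.22% and 14.6% without Smtn, and 13.1% and 16.5% without Smtn and Abcc9. The cause of these moves was not tested beyond the members each list rests on. Vessel-rich ratios were retaken with 10% of spots and without Acta2 in the ranking, and 35 of these 40 values moved by less than the reported interval. The 5 others included Myh11 and Tagln. With 10% of spots Myh11 was 8.83-fold and Tagln 11.2-fold in the control, and Myh11 4.63-fold in the transgenic section. Without Acta2 Tagln was 5.91-fold and Abcc9 1.24-fold in the transgenic section. Also without Acta2, the ratios of Abcc9 in the control (0.894-fold) and Rgs5 in the transgenic section (0.898-fold) had intervals that hold 1. Depth limits Cnn1 in the control section and Vtn in the transgenic section, with 45 and 59 UMIs.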
